A study of Mus musculus with 18 samples.

Results

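Tolerance enzymes and regulatory cytokines are the molecules through which dendritic cells (DCs) can restrain T cells, and 10 of their genes were followed in thymic XCR1+ DCs on 18 Affymetrix arrays. The members were the retinoic acid enzyme Aldh1a2, the tryptophan enzymes Ido1, Ido2 and Kynu, the prostaglandin enzymes Ptgs2 and Ptges, the arginine enzymes Arg2 and Nos2, and the cytokines Il10 and Tgfb1. A gene was taken as measured if the array annotation assigned a probeset to its symbol alone, with the brightest probeset kept where there were several. All 10 members met this, each through a single probeset, out of 19938 genes chosen in the same way. The list was drawn up from the known roles of these genes, with earlier results of these data known.

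XCR1+ DCs take up dying cells and present their antigens to T cells, and in the thymus such presentation helps to delete self-reactive thymocytes or turn them into regulatory T cells. All groups were untreated B6 mice. CCR7- cells were the immature stage (CD117+) and CCR7+ cells the homeostatically matured stage (CD117-), both sorted as CD11b-, CD11c+, MHCII+, CD172a-, XCR1+ and CD8a+. Each stage was taken from 3 backgrounds with 3 arrays each: wild-type SPF mice (specific-pathogen-free housing, labelled CTRL), Ifnar1-KO mice, also SPF, which lack a chain of the type I interferon receptor, and wild-type germ-free mice (GF). The labels give neither the age of the mice nor whether an array stood for a single mouse or a pool. The p-values therefore describe the spread among arrays, which may be technical. Between 0.7 and 7.3 ng of RNA went into each amplification.

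In the biology behind the list, PTGS2 (COX-2) turns arachidonic acid into prostaglandin H2, from which PTGES makes prostaglandin E2. ARG2, in mitochondria, splits arginine into ornithine and urea, while NOS2 makes nitric oxide from the same amino acid. IDO1 and IDO2 open the tryptophan ring on the way to kynurenine, which KYNU cleaves further down the pathway, and ALDH1A2 makes retinoic acid, which together with TGF-beta favours regulatory T cells in the gut. IL-10 and TGF-beta 1 dampen immune responses, the latter being secreted in a latent form that has to be activated.

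Before the members, the arrays themselves were examined. Within a group they correlated at 0.974 to 0.996 over all genes, and across stages at 0.904 to 0.939. Ccr7 and Kit, the sort genes gated differently in the 2 stages, moved with their gates. Ccr7 had group means of 7.89 to 8.99 in CCR7- and 11.90 to 11.99 in CCR7+ cells, and Kit 8.88 to 9.10 and 5.87 to 6.14. Of the sort genes gated alike, Itgax (CD11c) read 9.84 to 10.01 in CCR7- and 6.88 to 7.71 in CCR7+ cells. Sirpa (CD172a) read 4.73 to 4.99 and 5.63 to 5.88, and Itgam (CD11b) was near background in every group. The 12 XCR1+ DC markers had a mean level per array of 10.07 to 10.33 in CCR7- and 7.34 to 8.53 in CCR7+ cells. None was near background in CCR7- cells, and 1 of 12, Tlr3, was so in CCR7+ cells of CTRL (4.41) and GF (4.02). Group means of Xcr1 were 11.39 to 11.51 in CCR7- and 6.4 to 7.0 in CCR7+ cells, and Naaa (11.88 to 12.07 against 6.49 to 7.09), Itgae (10.26 to 10.41 against 5.83 to 6.99) and Wdfy4 (11.02 to 11.44 against 6.70 to 7.70) were lower in CCR7+ cells as well, while Irf8 (10.58 to 10.67) and Flt3 (10.21 to 10.52) read high in CCR7+ cells too. The Ifnar1 probeset read 7.27 to 8.07 on CCR7- and 6.07 to 7.61 on CCR7+ Ifnar1-KO arrays, against 8.06 to 8.09 and 7.61 to 7.82 in CTRL. It is not known here whether this probeset lies in the disrupted part, so it does not check the label. The backgrounds also differed in sex-linked genes: the Y-linked Eif2s3y read 3.34 to 3.49 in CTRL, 5.22 to 7.84 in Ifnar1-KO and 7.71 to 8.76 in GF, and Xist, the RNA of the inactive X chromosome, 7.80 to 9.63, 6.14 to 8.91 and 3.80 to 4.37. Sex and background could therefore not be told apart between CTRL and GF. Every Ifnar1-KO array read above CTRL in Eif2s3y and above GF in Xist, so sex and background are not separated in the comparisons with Ifnar1-KO either.

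Markers of some other cells moved with the stage as well. Of the lists below, only the macrophage and monocyte sums and the SIRPa+ conventional DC sums did not overlap between stages. Thymocyte genes (18 of 20 measured) had a mean level per array of 4.43 to 5.09 in CCR7- and 5.08 to 7.54 in CCR7+ cells, with the highest value on Ifnar1-KO CCR7+ replicate 2; summed over the list, this was 79.80 to 91.62 and 91.51 to 135.68. Macrophage and monocyte genes (12 of 13 measured) summed to 61.65 to 63.59 in CCR7- and 56.56 to 59.29 in CCR7+ cells. Of these 12, 5 to 7 per group were near background, Adgre1 (3.44 to 3.65), Mertk (3.45 to 3.59), Fcgr1 and Marco in all 6. Others were well above it: Lyz2 had group means of 8.83 to 9.25 in CCR7- and 6.13 to 6.77 in CCR7+ cells, Ccr2 6.97 to 7.35 and 3.92 to 4.14, and Vcam1 7.28 to 7.63 and 9.31 to 9.57. SIRPa+ conventional DC genes (8 of 8) summed to 32.30 to 34.00 in CCR7- and 35.62 to 37.29 in CCR7+ cells without overlap, with Irf4 at 3.98 to 4.16 and 6.55 to 6.99 and 5 or 6 of 8 genes near background. Plasmacytoid DC genes (7 of 8) summed to 49.58 to 51.94 and 44.50 to 49.87, with 0 of the 7 near background in any group. Their mean level per array was 7.08 to 7.42 in CCR7- and 6.36 to 7.12 in CCR7+ cells. Sums were 41.33 to 43.37 and 42.36 to 44.82 for thymic epithelial genes (9 of 9), 27.42 to 29.68 and 27.20 to 29.19 for B cell genes (7 of 8), and 31.35 to 33.20 and 32.19 to 35.87 for neutrophil genes (8 of 8). The part of RNA from other cells in the results below was not tested, beyond fits without the array with the most thymocyte signal. Less RNA of a gene per cell and fewer cells expressing it cannot be told apart in sorted bulk samples.

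An array has no zero, so low readings were set beside the 1027 olfactory receptor genes, which DCs are not known to use. The 95th percentile of their mean log2 intensities was 4.42, and a group mean under it is called near background here, as a guide only since background differs between probesets. Of the 60 group means of the 10 members, 37 lay near background. Ido2, Ptges, Nos2, Il10 and Aldh1a2 did so in all 6 groups, Ido1 in all except GF CCR7+ cells, and Arg2 in CCR7- cells of CTRL and Ifnar1-KO. Ptgs2, Kynu and Tgfb1 were above it in every group.

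**Figure D1:**
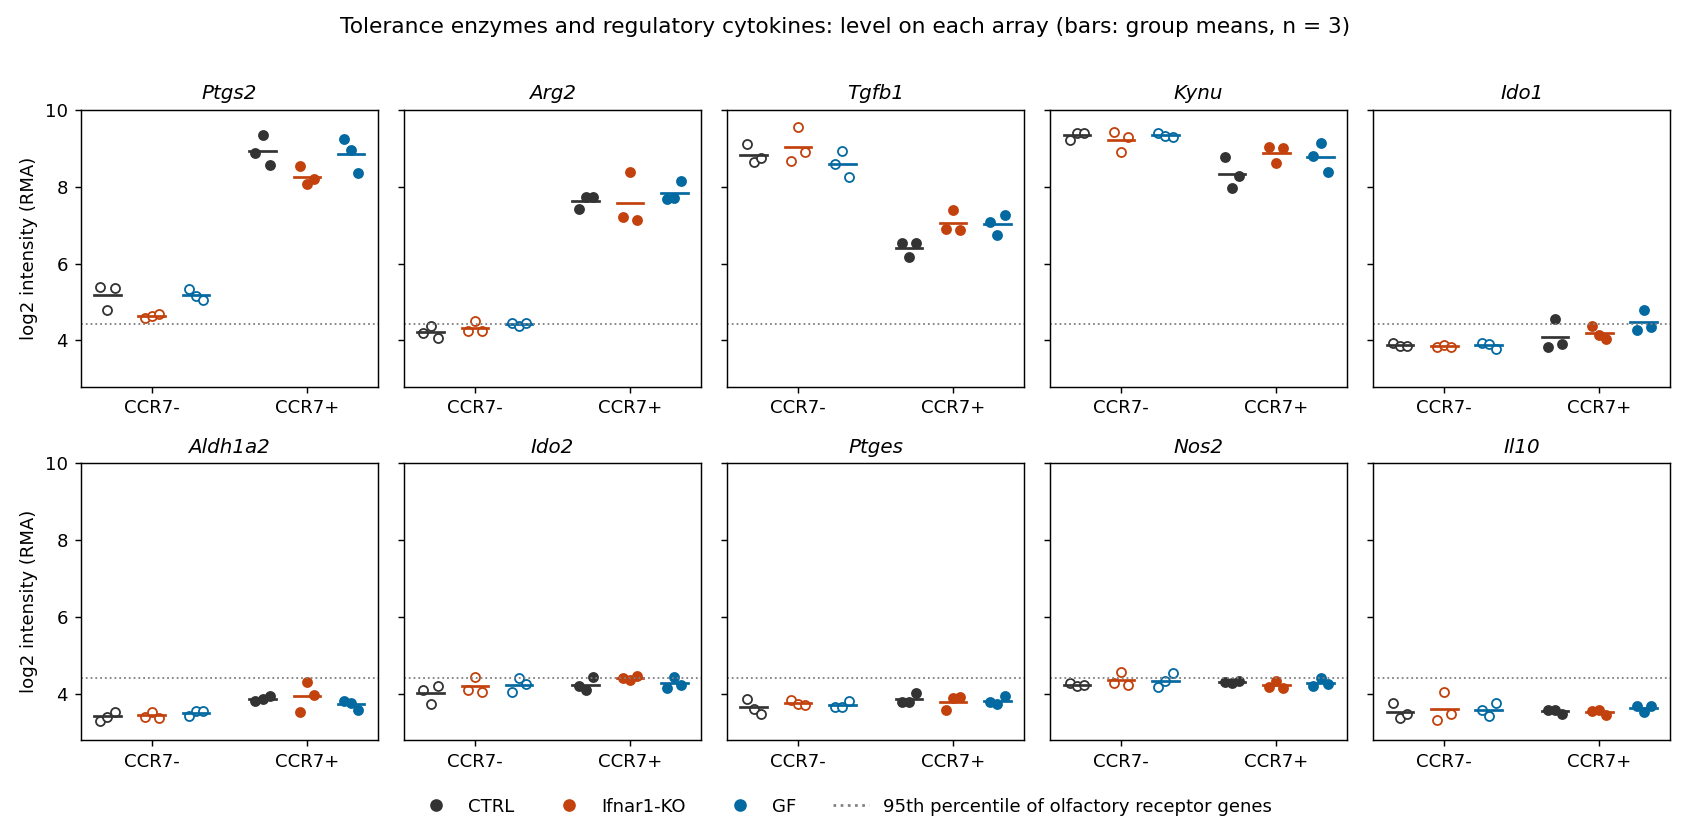
Log2 intensity (RMA) of the 10 genes on each of the 18 arrays, by stage (open points CCR7-, filled points CCR7+) and background (colour), with group means as bars (n = 3) and the 95th percentile of olfactory receptor genes (4.42) as a dotted line. Ptgs2 and Arg2 stand far higher and Tgfb1 lower in CCR7+ cells of all 3 backgrounds, while Ido2, Ptges, Nos2 and Il10 stay along the dotted line or under it.

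The first question was how the set changes with homeostatic maturation, taken as CCR7+ minus CCR7- cells within a background. Maturation brought a marked rise of Ptgs2 and Arg2 and a fall of Tgfb1 in all 3 backgrounds, with smaller shifts of Kynu, Ido1 and Aldh1a2 and no call for Ido2, Ptges, Nos2 or Il10. In CTRL, 3 of 10 members rose, 2 fell and 5 did not pass (limma across all genes, Benjamini-Hochberg adjusted p under 0.05, n = 3 arrays per group), where 26.2% of all genes were called (12.6% higher and 13.6% lower). The counts were 3 rising and 1 falling in Ifnar1-KO (20.2% of all genes called, 9.42% higher and 10.8% lower) and likewise 3 and 1 in GF (21.3%, with 9.53% higher and 11.8% lower), although the third riser was Aldh1a2 in CTRL and Ifnar1-KO and Ido1 in GF. The median absolute change of the members was 0.35 in CTRL against 0.19 over all genes, 0.33 against 0.13 in Ifnar1-KO and 0.38 against 0.15 in GF. CCR7- and CCR7+ arrays did not overlap for 6 members in CTRL, 4 in Ifnar1-KO and 6 in GF, with 49.0%, 29.6% and 33.6% of all genes in the same position.

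**Figure D2:**
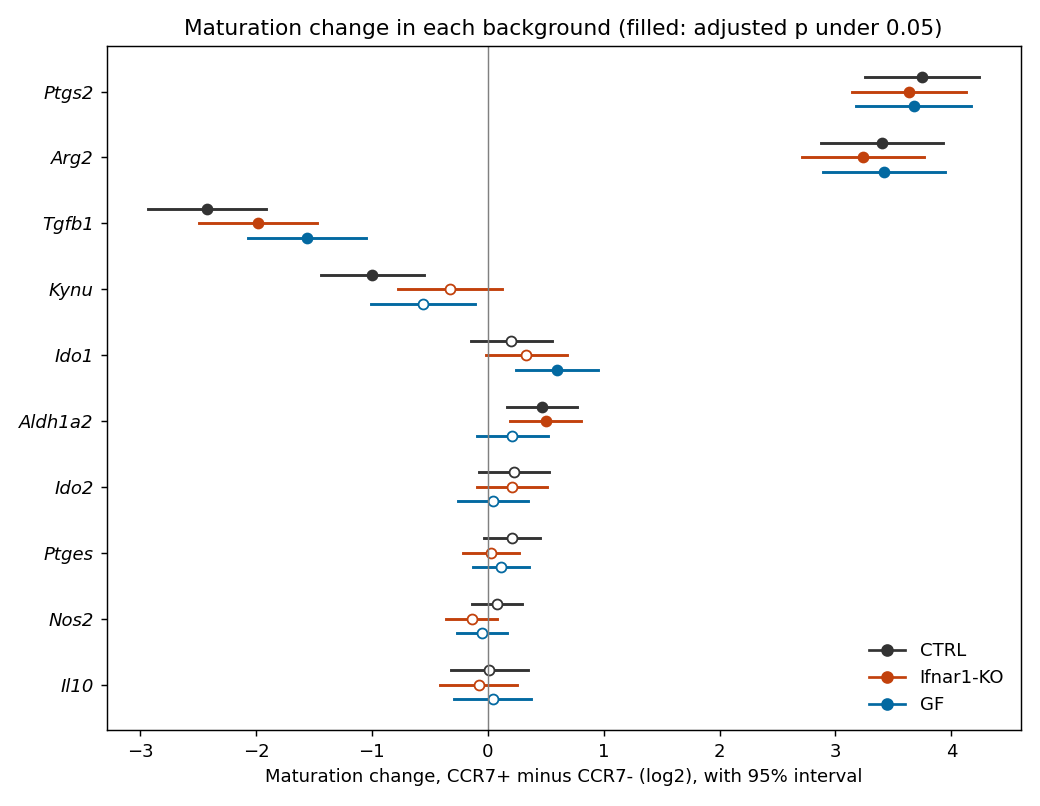
Maturation change (log2, CCR7+ minus CCR7-) of each gene with its 95% interval from limma in CTRL, Ifnar1-KO and GF mice (n = 3 arrays per group), filled where the adjusted p was under 0.05. The intervals of Ptgs2, Arg2 and Tgfb1 lie clear of 0 in all 3 backgrounds, those of Kynu in CTRL and GF, and those of Ido2, Ptges, Nos2 and Il10 include 0 throughout.

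Among the prostaglandin enzymes, Ptgs2 rose in every background. It read 5.40, 4.80 and 5.36 on the CTRL CCR7- arrays and 8.88, 9.34 and 8.57 on the CTRL CCR7+ arrays (means 5.19 ± 0.33 and 8.93 ± 0.39, SD, n = 3). In Ifnar1-KO it read 4.58, 4.64 and 4.68 in CCR7- and 8.53, 8.06 and 8.21 in CCR7+ cells, and in GF 5.34, 5.17 and 5.05 against 9.25, 8.97 and 8.36. Every CCR7+ array lay above every CCR7- array, over all backgrounds. The rise was 3.75 ± 0.23 (SE) in CTRL, or 13.4-fold (limma adjusted p = 2.34e-08), 3.63 ± 0.23 or 12.4-fold in Ifnar1-KO (3.47e-08) and 3.67 ± 0.23 or 12.8-fold in GF (3.23e-08).

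Ptges, the next enzyme of that route, did not follow. Its readings ran from 3.49 to 3.87 in CCR7- and from 3.58 to 4.02 in CCR7+ cells over all 18 arrays, near background throughout. The maturation change was 0.21 in CTRL (95% interval -0.03 to 0.45), 0.03 in Ifnar1-KO (-0.22 to 0.27) and 0.12 in GF (-0.13 to 0.36). These intervals leave out rises of the size seen for Ptgs2 in measured signal, but a probeset at background can hide lower levels of RNA.

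Of the 26 measured further genes of prostaglandins and other eicosanoids, 3 rose, 8 fell and 15 did not pass in CTRL, with a median change of -0.02 (0.07 over all genes). Alox5ap, whose product hands arachidonic acid to 5-lipoxygenase for leukotriene synthesis, fell by 4.78 ± 0.49, a 27.5-fold change. Hpgds, a prostaglandin D2 synthase, fell by 2.14 ± 0.61 to a level near background. Ltc4s, the leukotriene C4 synthase, rose by 2.13 ± 0.33, and Ptger4, a receptor of prostaglandin E2, by 2.05 ± 0.24. Alox5ap, Ltc4s and Ptger4 were called in the same direction in Ifnar1-KO (-4.12, 1.56 and 2.0) and in GF (-4.16, 2.12 and 1.92), while Hpgds did not pass there (-0.87 and -1.07). In Ifnar1-KO 2 of the 26 rose and 7 fell, and in GF 2 rose and 6 fell. Beside these and the list counts below, 12.6% of all genes were called higher and 13.6% lower in CTRL. The shares were 9.42% and 10.8% in Ifnar1-KO, and 9.53% and 11.8% in GF.

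The promoter windows of Ptgs2 and Tgfb1 are shown, since these members were called in every background, Ptgs2 rising and Tgfb1 falling. RefSeq windows (GRCm38.p6, 250 bases before to 50 after the annotated start) were found for 4 of the 10 members, namely Aldh1a2, Ptgs2, Ptges and Tgfb1. The Ptgs2 window is chr1:150099781-150100080 (+ strand) and that of Tgfb1 chr7:25686752-25687051 (+ strand). Capitals mark matches, on either strand, to 4 motifs. The letters searched were TATAAA, found upstream of many start sites, then CACGTG for the E-box, bound by helix-loop-helix factors, then TGACGT for a half-site of the cyclic AMP response element, and finally GGGCGG for the GC box, bound by SP1 and its relatives.
Ptgs2: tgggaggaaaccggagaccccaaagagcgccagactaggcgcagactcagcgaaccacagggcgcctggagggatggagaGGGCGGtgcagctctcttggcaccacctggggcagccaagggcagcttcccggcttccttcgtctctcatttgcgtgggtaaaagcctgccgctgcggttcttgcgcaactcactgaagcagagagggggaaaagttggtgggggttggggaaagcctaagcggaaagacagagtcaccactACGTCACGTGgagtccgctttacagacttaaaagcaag
Tgfb1: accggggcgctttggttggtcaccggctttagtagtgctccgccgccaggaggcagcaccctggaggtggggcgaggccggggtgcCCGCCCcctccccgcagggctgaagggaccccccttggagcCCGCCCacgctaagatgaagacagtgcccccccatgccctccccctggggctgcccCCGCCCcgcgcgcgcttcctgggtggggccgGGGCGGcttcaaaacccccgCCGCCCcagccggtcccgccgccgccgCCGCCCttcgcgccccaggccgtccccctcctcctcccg

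In the Ptgs2 window the E-box (bases 267 to 272, counted from 1 at the 5′ end) and the response element half-site (bases 263 to 268, on the minus strand) overlapped, and a GC box stood at bases 81 to 86. The Tgfb1 window held 6 GC boxes and none of the other motifs. Of all 32851 promoter windows, 7.15% held the E-box letters, 7.51% those of the half-site, 35.7% a GC box and 13.6% TATAAA. These matches describe the letters of the windows only.

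The arginine enzymes parted in the same manner as the prostaglandin enzymes. Arg2 read 4.21, 4.38 and 4.07 on CTRL CCR7- and 7.42, 7.72 and 7.72 on CTRL CCR7+ arrays. In Ifnar1-KO the readings were 4.25, 4.51 and 4.24 against 7.21, 8.37 and 7.13, and in GF 4.45, 4.38 and 4.45 against 7.69, 7.71 and 8.15. All 9 CCR7- readings sat close to the background level, all 9 CCR7+ readings more than 2 log2 units above it, and the stages did not overlap. Arg2 rose by 3.40 ± 0.25 in CTRL, a measured 10.6-fold (limma adjusted p = 1.11e-07), by 3.24 ± 0.25 or 9.42-fold in Ifnar1-KO (2.21e-07) and by 3.42 ± 0.25 or 10.7-fold in GF (1.14e-07). As the starting levels lay at or beside background, these folds may be lower bounds.

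The highest Arg2 reading, 8.37, came from Ifnar1-KO CCR7+ replicate 2, the array with the highest thymocyte marker level. The Ifnar1-KO CCR7+ SD of Arg2 was 0.70, against 0.04 in GF CCR7- cells, while the SE above pools the spread over all groups. Over the 28 alternative fits of this contrast, the Ifnar1-KO change of Arg2 ranged from 2.83 to 3.46 and was called in each; 2.83 was the value without that array.

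Nos2 stayed near background. It read 4.20 to 4.28 in CTRL CCR7- and 4.29 to 4.33 in CTRL CCR7+ cells, and group means in the other backgrounds were 4.22 to 4.36. The change was 0.08 in CTRL (95% interval -0.14 to 0.30), -0.14 in Ifnar1-KO (-0.36 to 0.08) and -0.05 in GF (-0.26 to 0.17), with no call.

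Around these enzymes, 6 of 21 measured genes of arginine, polyamine and nitric oxide metabolism rose, 5 fell and 10 did not pass in CTRL (median change 0.06, 0.07 over all genes). Srm (spermidine synthase) fell by 2.25 ± 0.26, and Slc7a1, a carrier that brings arginine into the cell, fell by 1.40 ± 0.24. Asl, the lyase that releases arginine in its synthesis, rose by 1.34 ± 0.13, and Spr, which completes the cofactor tetrahydrobiopterin of nitric oxide synthases, rose by 1.15 ± 0.26. All 4 were called in the same direction in both other backgrounds, where 5 rose and 4 fell (Ifnar1-KO) and 3 rose and 4 fell (GF).

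The tryptophan enzymes gave weaker and less uniform changes. Kynu, the kynureninase, read 9.20, 9.40 and 9.41 on CTRL CCR7- and 8.77, 7.98 and 8.28 on CTRL CCR7+ arrays. The Ifnar1-KO arrays read 9.41, 8.92 and 9.31 against 9.05, 8.61 and 9.0, and the GF arrays 9.40, 9.33 and 9.28 against 8.81, 9.15 and 8.38. CCR7+ arrays lay below CCR7- arrays in CTRL and GF and overlapped with them in Ifnar1-KO. Kynu fell by 0.99 ± 0.21 in CTRL (a fold of 1.99, limma adjusted p = 0.00221), whereas the change did not pass in Ifnar1-KO (-0.33 ± 0.21, adjusted p = 0.364) or GF (-0.56 ± 0.21, adjusted p = 0.0760).

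Ido1 remained low in both stages. CCR7- arrays read 3.79 to 3.95 in all backgrounds. CCR7+ arrays read 3.82, 4.55 and 3.90 in CTRL, 4.37, 4.13 and 4.05 in Ifnar1-KO and 4.28, 4.79 and 4.35 in GF. The stages overlapped in CTRL but not in Ifnar1-KO or GF, and single CTRL and GF arrays (replicate 2 of each) stood above their groups. Only the GF change was called (0.60 ± 0.16, or 1.51-fold, limma adjusted p = 0.0155), next to 0.20 ± 0.16 in CTRL (adjusted p = 0.389) and 0.33 ± 0.16 in Ifnar1-KO (0.204). Without CTRL CCR7+ replicate 2 the CTRL change was -0.02. The GF call ended without GF CCR7+ replicate 2 (0.44, adjusted p = 0.0830) or without GF CCR7- replicate 3 (0.55, 0.0576).

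Ido2, the paralogue of Ido1, read 3.74 to 4.46 over the 18 arrays with no separation of stages. Its change was 0.22 in CTRL (95% interval -0.08 to 0.53), 0.21 in Ifnar1-KO (-0.10 to 0.51) and 0.04 in GF (-0.26 to 0.35).

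Among 19 further measured genes of the tryptophan and kynurenine pathway, 3 rose, 6 fell and 10 did not pass in CTRL (median -0.04, 0.07 over all genes). Kmo, the monooxygenase that hydroxylates kynurenine ahead of KYNU, fell by 4.72 ± 0.19 in CTRL, from a mean of 8.83 to 4.11, near background, so its 26.4-fold measured change may be a lower bound. It changed by -4.26 ± 0.19 in Ifnar1-KO and -4.75 ± 0.19 in GF. Haao, which acts after KYNU, fell by 1.44 ± 0.31 in CTRL, and Slc7a5, part of a carrier for tryptophan and leucine, by 1.40 ± 0.33. The aryl hydrocarbon receptor Ahr, which kynurenine can activate, fell by 2.28 ± 0.19 in CTRL and changed by -1.79 and -1.54 in Ifnar1-KO and GF, called in both. Slc7a5 was also called in both (-1.14 and -1.51), Haao in GF (-0.91) but not in Ifnar1-KO (-0.85, adjusted p = 0.0643). The counts were 1 rising and 3 falling in Ifnar1-KO, and 1 and 6 in GF.

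Aldh1a2, the retinal dehydrogenase, was called in spite of readings near background. CCR7- arrays read 3.31, 3.40 and 3.53 in CTRL, 3.41, 3.54 and 3.37 in Ifnar1-KO and 3.42, 3.56 and 3.56 in GF. CCR7+ arrays read 3.83, 3.87 and 3.95 in CTRL, 3.54, 4.30 and 3.97 in Ifnar1-KO and 3.82, 3.77 and 3.59 in GF. All readings were under 4.42, and the stages overlapped in Ifnar1-KO. The change was 0.47 ± 0.14 in CTRL (1.38-fold, limma adjusted p = 0.0237), 0.50 ± 0.14 in Ifnar1-KO (1.41-fold, 0.0199) and 0.21 ± 0.14 in GF (adjusted p = 0.354).

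The calls of Aldh1a2 were not stable. In CTRL the call ended with each array centred on its median (0.37, adjusted p = 0.0743) and without CTRL CCR7- replicate 1 (0.41) or 2 (0.46) or CTRL CCR7+ replicate 2 (0.47) or 3 (0.43). In Ifnar1-KO it ended with only its own groups fitted (limma adjusted p = 0.178) and without both replicate 2 arrays (0.37). It also ended without CCR7- replicate 1 (0.48) or 3 (0.46), or without CCR7+ replicate 2 (0.32) or 3 (0.48). Ifnar1-KO CCR7+ replicate 2 held the highest Aldh1a2 reading, 4.30, and was the array with the highest thymocyte marker level.

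Of 28 measured retinoic acid genes besides Aldh1a2, 2 rose, 3 fell and 23 did not pass in CTRL (median 0.08, 0.07 over all genes). The nuclear receptors Rxra and Rara fell by 2.79 ± 0.31 and 1.23 ± 0.19, and both were called in Ifnar1-KO (-2.41 and -0.84) and GF (-2.65 and -1.05). Dhrs9, a dehydrogenase that can act on retinol, fell by 1.66 ± 0.29 to near background. Adh1, an alcohol dehydrogenase, rose by 0.45 ± 0.14 in CTRL from near background and did not pass in the other backgrounds. In Ifnar1-KO 1 of the 28 rose and 4 fell, and in GF 0 rose and 3 fell.

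Of the regulatory cytokines, Tgfb1 fell and Il10 was not detected above background. Tgfb1 read 9.12, 8.64 and 8.75 on CTRL CCR7- and 6.52, 6.18 and 6.54 on CTRL CCR7+ arrays. In Ifnar1-KO it read 8.67, 9.55 and 8.91 against 6.91, 7.39 and 6.86, and in GF 8.59, 8.94 and 8.24 against 7.08, 6.74 and 7.27. Every CCR7+ array lay below every CCR7- array, over all backgrounds, and the lowest 3 of the 18 readings were those of CTRL CCR7+ cells. Tgfb1 fell by 2.42 ± 0.24 in CTRL, a fold of 5.36 (limma adjusted p = 2.25e-06), by 1.99 ± 0.24 in Ifnar1-KO, a fold of 3.96 (1.86e-05), and by 1.56 ± 0.24 in GF, a fold of 2.95 (0.000168).

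Il10 read 3.32 to 4.06 in CCR7- and 3.46 to 3.70 in CCR7+ cells, with the highest reading on Ifnar1-KO CCR7- replicate 2. Its change was 0.01 in CTRL (95% interval -0.32 to 0.34), -0.08 in Ifnar1-KO (-0.41 to 0.25) and 0.04 in GF (-0.29 to 0.37).

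Of 29 measured genes of TGF-beta activation and signalling, 9 rose, 6 fell and 14 did not pass in CTRL (median 0.06, 0.07 over all genes). Itgb8, the integrin subunit with which DCs free active TGF-beta from its latent form, rose by 3.50 ± 0.15 in CTRL, a measured 11.3-fold from a mean of 4.08 near background to 7.58. It rose by 3.23 ± 0.15 in Ifnar1-KO and 3.69 ± 0.15 in GF, also from near background, so these changes may be lower bounds. Tgfbi, a matrix protein induced by TGF-beta in many cells, fell by 4.32 ± 0.28 or 20.03-fold in CTRL, and changed by -3.79 in Ifnar1-KO and -4.35 in GF.

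Acvrl1, a type I receptor of this family, fell by 1.30 ± 0.18 in CTRL and was called in both other backgrounds (-1.11 and -1.39). The signal transducer Smad3 rose by 1.25 ± 0.29 in CTRL and 1.03 ± 0.29 in Ifnar1-KO, and did not pass in GF (0.81, adjusted p = 0.0585). The list counts were 4 rising and 4 falling both in Ifnar1-KO and in GF.

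The last list, drawn around IL-10 and its signalling, also held subunits of IL-27 and transcription regulators with wider roles. Of its 17 measured genes, 8 rose, 0 fell and 9 did not pass in CTRL (median 0.35, 0.07 over all genes). In Ifnar1-KO 7 rose and in GF 9, again with 0 falling. These counts describe the mixed list and do not measure IL-10 signalling. The largest rises in CTRL were in Etv3, a transcriptional repressor that IL-10 induces in macrophages, at 2.03 ± 0.21, and Nfil3, a transcription factor needed for XCR1+ DC development in mice, at 1.55 ± 0.24. Bcl3, a nuclear cofactor of NF-kB, rose by 1.48 ± 0.32 and Il27, a subunit of the cytokine IL-27, by 1.42 ± 0.30. All 4 were called in both other backgrounds.

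**Figure D3:**
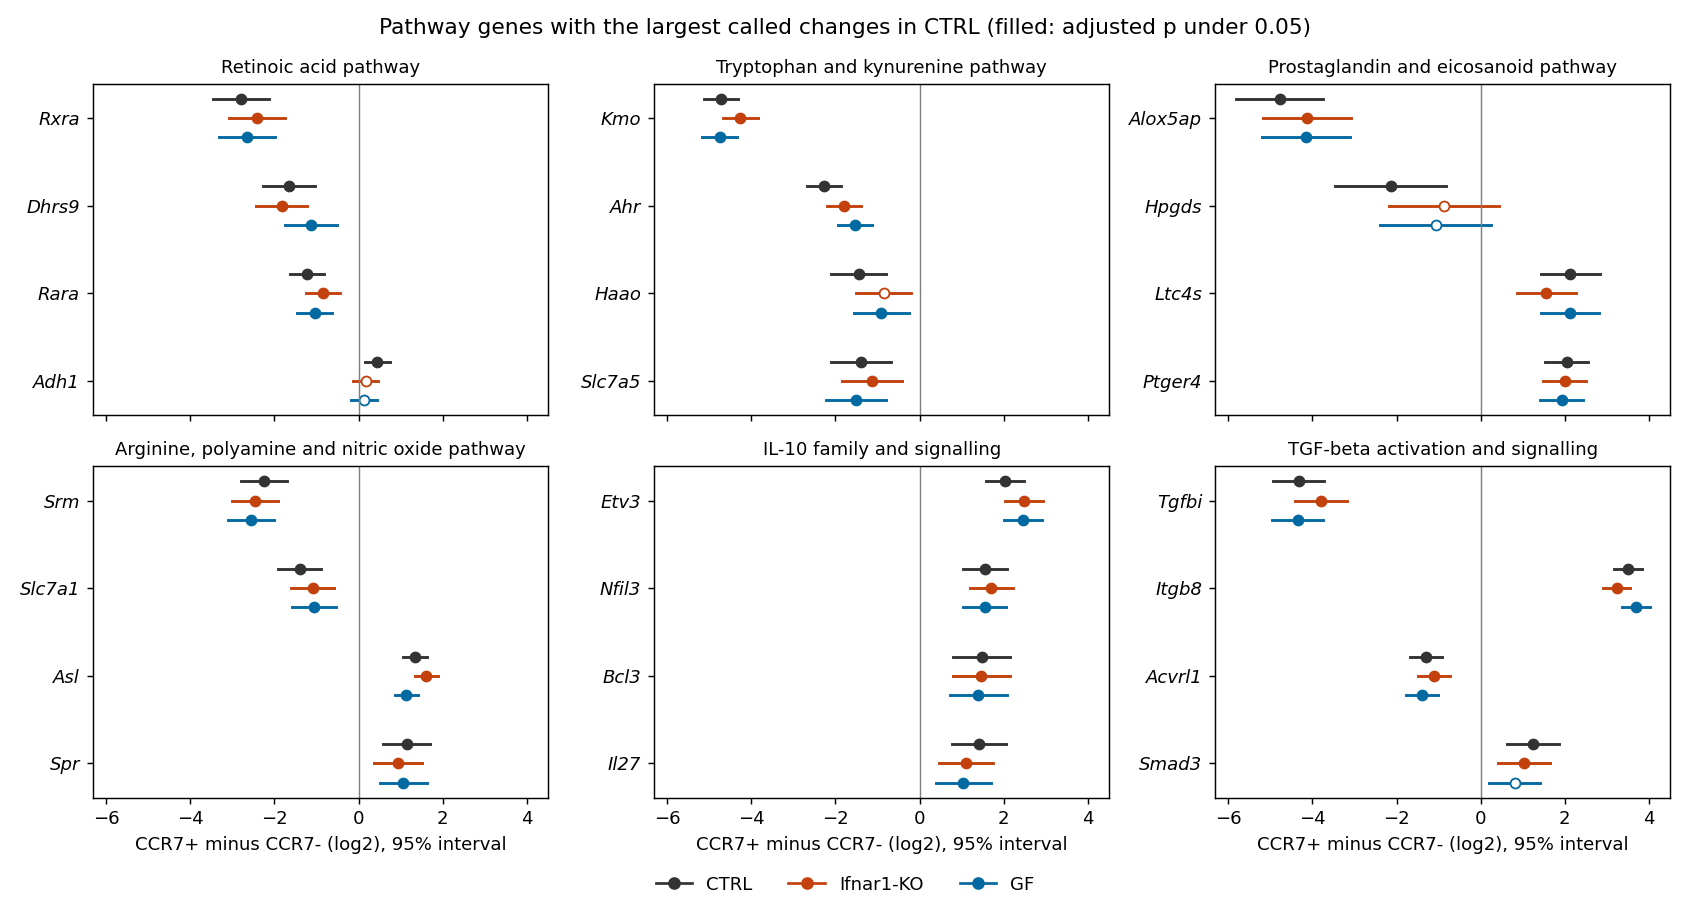
Maturation change (log2, with 95% interval) in each background for the pathway genes with the largest called changes in CTRL, up to 4 per list, filled where the adjusted p was under 0.05. Kmo, Alox5ap and Tgfbi show the lowest values and Itgb8 the highest in each background, and the open points are Adh1 and Hpgds in Ifnar1-KO and GF, Haao in Ifnar1-KO and Smad3 in GF.

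Genes most like a member over the 18 arrays were ranked by the root-mean-square difference after each gene was centred on its mean, a description dominated by the contrast of stages. For Ptgs2 these were Arhgap28 (0.31 log2 units), Il4ra (0.32) and Lgmn (0.32), for Arg2 Cd200 (0.32), Bcl2l14 (0.34) and Mfge8 (0.35), and for Tgfb1 Hk2 (0.26), Usp45 (0.28) and Prmt5 (0.29). Kynu was closest to Atp5g3 (0.21), Mtpn (0.22) and Isoc1 (0.23), and Aldh1a2 to Sit1, Syce1l and Wnt11 (0.10 to 0.12), in the latter case against an own SD of only 0.26. Within the set, the genes near background were closest to each other, and Ptgs2 and Arg2 differed by 0.54.

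The next question was whether the set depends on type I interferon signalling or on the microflora. In the difference of the maturation change from CTRL, 0 of 10 members passed for Ifnar1-KO (limma, smallest adjusted p = 0.958, 1 at an unadjusted p under 0.05, as were 4.52% of all genes) and 0 for GF (0.999, also 1 unadjusted, with 3.31% of all genes); over all genes 0% were called in both. Within a stage, 0 of 10 passed in each of the 4 comparisons with CTRL, with 1 (Ifnar1-KO CCR7-), 3 (Ifnar1-KO CCR7+), 0 (GF CCR7-) and 2 (GF CCR7+) at an unadjusted p under 0.05, a threshold met by 7.03%, 2.92%, 6.32% and 5.86% of all genes. Over all genes, 0%, 0.0150%, 0.0150% and 0.0301% were called in these. Split by direction, 0.0100% were higher and 0.00502% lower in Ifnar1-KO CCR7+ cells, 0.0100% and 0.00502% in GF CCR7- cells, and 0.0251% and 0.00502% in GF CCR7+ cells. All of these comparisons share the CTRL arrays.

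**Figure D4:**
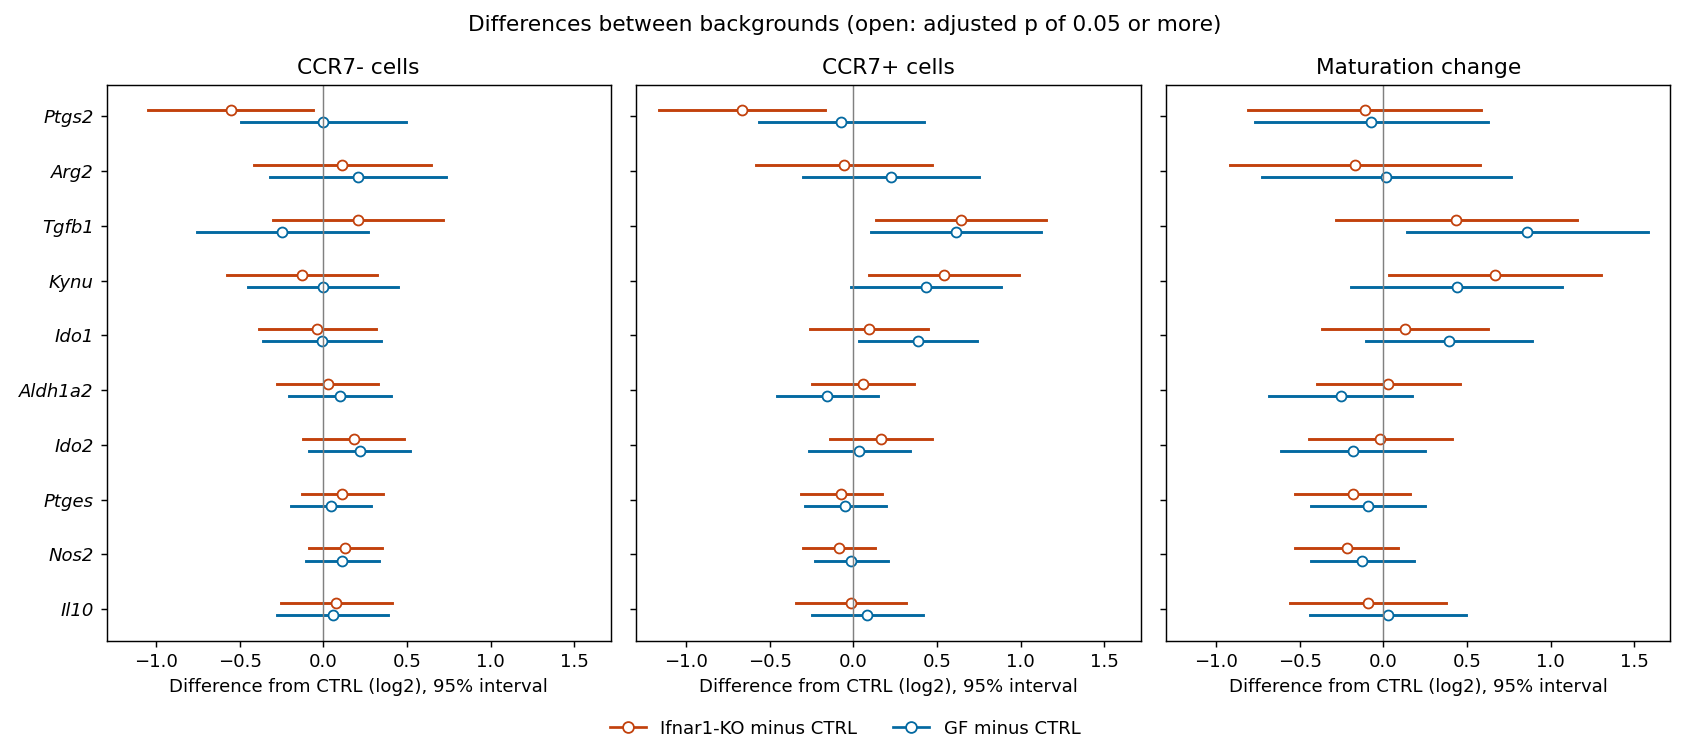
Differences from CTRL (log2, with 95% interval from limma) for Ifnar1-KO and GF in CCR7- cells, CCR7+ cells and in the maturation change (n = 3 arrays per group). All points are open, as 0 passed the adjusted threshold; before adjustment, 0 lies outside the intervals of Ptgs2 in both stages of Ifnar1-KO, of Tgfb1 in CCR7+ cells of both backgrounds, of Kynu in Ifnar1-KO and Ido1 in GF CCR7+ cells, and of the maturation difference of Kynu in Ifnar1-KO and Tgfb1 in GF.

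For Ptgs2 and Arg2, the members that changed most, the data bounded how far the measured changes could differ between backgrounds. The maturation change of Ptgs2 differed from CTRL by -0.11 in Ifnar1-KO (95% interval -0.81 to 0.59) and -0.07 in GF (-0.77 to 0.63). That of Arg2 differed by -0.17 (-0.91 to 0.58) and 0.02 (-0.73 to 0.77). Differences of 1 log2 unit or more between backgrounds, in either direction, thus lie outside these intervals, while some smaller ones lie inside. For Arg2 this holds for measured signal only, as its CCR7- readings sat close to background. Tgfb1 was not bounded in this way, as its intervals reach 1.16 in Ifnar1-KO and 1.58 in GF.

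Tgfb1 in GF had the largest difference of the maturation change from CTRL among the 10 members, and it did not pass. In CCR7+ cells the Ifnar1-KO arrays (6.86 to 7.39) and the GF arrays (6.74 to 7.27) all read above the CTRL arrays (6.18 to 6.54). The difference from CTRL was 0.64 ± 0.24 for Ifnar1-KO (unadjusted p = 0.0169, limma adjusted p = 1.0) and 0.62 ± 0.24 for GF (0.0211 and 0.765). The fall with maturation was smaller than in CTRL by 0.86 in GF (95% interval 0.14 to 1.58, unadjusted p = 0.0224, adjusted 0.999) and by 0.44 in Ifnar1-KO (-0.28 to 1.16, adjusted p = 0.958). Groups that do not overlap made up 6.94% of all genes for Ifnar1-KO and 11.5% for GF in CCR7+ cells. The highest Ifnar1-KO reading in CCR7+ cells, 7.39, came from replicate 2, the array with the highest thymocyte marker level. Without that array, Tgfb1 in CCR7+ cells differed from CTRL by 0.47 in Ifnar1-KO.

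Ptgs2 read lower in Ifnar1-KO than in CTRL in both stages without overlap, at 4.58 to 4.68 against 4.80 to 5.40 in CCR7- and 8.06 to 8.53 against 8.57 to 9.34 in CCR7+ cells. The differences of -0.55 ± 0.23 (unadjusted p = 0.0301, limma adjusted p = 0.681) and -0.67 ± 0.23 (0.0117 and 1.0) did not pass. Groups did not overlap for 15.4% of all genes in CCR7- and 6.94% in CCR7+ cells. With both stages averaged per replicate number, a fit chosen after the values were seen, the difference was -0.61 ± 0.14 (unadjusted p = 0.00196, adjusted p = 0.940), where 0% of all genes were called. GF arrays overlapped with CTRL in both stages, and their differences were -0.00 and -0.07. Beside Ptgs2 and Tgfb1, Arg2 in GF CCR7- cells (above) and Aldh1a2 in GF CCR7+ cells (below) did not overlap with CTRL. Groups did not overlap for 14.8% and 11.5% of all genes there. Both genes read close to background in these cells, and neither difference passed.

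Kynu in CCR7+ cells was 0.54 ± 0.21 higher in Ifnar1-KO than in CTRL (unadjusted p = 0.0208, limma adjusted p = 1.0) and 0.44 ± 0.21 higher in GF (adjusted p = 0.871), with overlapping arrays. In CCR7- cells the 3 group means (CTRL, Ifnar1-KO and GF) were 9.34 ± 0.12, 9.21 ± 0.26 and 9.34 ± 0.06 (SD). Ido1 in GF CCR7+ cells was 0.39 ± 0.16 higher than in CTRL (unadjusted p = 0.0332, adjusted p = 0.803), again with overlap. This difference was 0.62 without CTRL CCR7+ replicate 2 (adjusted p = 0.240) and 0.23 without GF CCR7+ replicate 2 (0.961), and that of the maturation change ran from 0.24 to 0.62 over the same omissions. The calls of Kynu in CTRL alone and of Ido1 in GF alone are thus not shown to differ between backgrounds: the differences in maturation change were 0.67 ± 0.30 (Kynu, Ifnar1-KO) and 0.40 ± 0.23 (Ido1, GF), with adjusted p-values of 0.958 and 0.999.

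The differences between backgrounds did not pass, which does not show the changes to be equal. The maturation change was also averaged over the 3 backgrounds, in a fit chosen after the values were seen. There 4 of 10 members rose and 2 fell, with 39.4% of all genes called (20.4% higher and 18.9% lower). Kynu changed by -0.63 ± 0.12 (limma adjusted p = 0.000634), Ido1 by 0.38 ± 0.09 (0.00480) and Aldh1a2 by 0.39 ± 0.08 (adjusted p = 0.00118), beside Ptgs2 (3.68 ± 0.13), Arg2 (3.35 ± 0.14) and Tgfb1 (-1.99 ± 0.14). Of these, Aldh1a2 was near background in every group and Ido1 in all except GF CCR7+ cells. The 95% intervals of those that did not pass were -0.02 to 0.33 for Ido2, -0.02 to 0.26 for Ptges, -0.16 to 0.09 for Nos2 and -0.20 to 0.18 for Il10.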

How the data were processed

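The deposited values are log2 intensities that the authors made with RMA in the oligo package, per the submitters' processing notes, from RNA amplified with a NuGEN Ovation Pico kit, per the labels' protocols. Neither the versions nor joint normalisation of the arrays are stated there. Arrays have no read depth; their number limits the precision (median 95% half-width 0.27 for a maturation change and 0.38 for a difference of changes).

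Of 35556 probesets, 21789 had exactly 1 symbol; 1621 had several and 12146 none in the annotation used and were left out. The probeset with the highest mean gave 19938 genes, with no filter on level. Tests used limma 3.58.1 (R 4.3.3), with 1 mean per group (6 groups of 3) and 12 residual degrees of freedom, adjusted by Benjamini-Hochberg over all genes within each comparison at a threshold of 0.05. The fit was tested on simulated data. Pairing was checked by correlating the deviations of same-numbered arrays across stages: CTRL (0.188, 0.147 and 0.100) and Ifnar1-KO (0.284, 0.321 and 0.236) met the rule of over 0.1 in every pair, while GF did not (0.267, 0.00354 and 0.0296). The array codes of CTRL replicate 2 carry the letters of the other stage; stages follow the sample titles.

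The members and lists were chosen with earlier results of these data known. Named were all members, up to 4 called genes per pathway list with the largest changes in CTRL, and the 3 genes most like each member called in CTRL, predicted genes passed over. Alternatives covered leaving out arrays, a replicate block, median-centred arrays, array weights, a trend on intensity, a filter at the median level, other probeset rules, fits restricted to the compared groups and a covariate for the trailing r of array codes. Averages over backgrounds and over stages were added after seeing the data. Figures were drawn with matplotlib 3.10.9.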

Additional observations from a re-analysis of the deposited data

How the results depend on the processing

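Across 28 alternative fits of each background's own contrast, Ptgs2, Arg2 and Tgfb1 kept their direction and calls in all 3 backgrounds, as did Kynu in CTRL. The maturation change ranged from 3.48 to 3.93 for Ptgs2, 2.83 to 3.50 for Arg2, -2.52 to -1.39 for Tgfb1 and, in CTRL, -1.21 to -0.81 for Kynu. The number of members called was 4 to 5 in CTRL, 3 to 4 in Ifnar1-KO and 3 to 5 in GF, with the same ranges over fits that left out single arrays, 6 in the average over backgrounds chosen after seeing the data, and 0 in every comparison between backgrounds. With the replicate block, which pairs CCR7- and CCR7+ arrays of a number, 5, 4 and 4 members were called, as without it, and no call of a member changed. Besides the losses given above for Aldh1a2 and Ido1, Kynu in GF was called with genes at or above the median level (adjusted p = 0.0485), without GF CCR7+ replicate 2 (-0.74) and without CTRL CCR7+ replicate 1 (adjusted p = 0.0453); the cause was not tested. With arrays centred on their medians, 1669 genes were higher and 3157 lower in CTRL maturation, instead of 2514 and 2704; array weights gave 3845 and 3364, and leaving out CTRL CCR7+ replicate 2 gave 2521 and 2430. Calls over all genes ranged from 0 to 5 (Ifnar1-KO minus CTRL, CCR7-), 0 to 7 (CCR7+), 3 to 41 (GF minus CTRL, CCR7-, the highest without GF CCR7- replicate 1) and 1 to 13 (CCR7+), against 0, 3, 3 and 6. No result met the rules for a closer look; groups of 3 arrays were not tested for outliers. Signal near background limits what can be said of Ido1, Ido2, Aldh1a2, Ptges, Nos2 and Il10.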
